A study of Ictalurus punctatus and Ictalurus punctatus x Ictalurus furcatus with 18 samples.

Results

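Liver RNA of hybrid catfish was compared with that of Red River channel catfish after 6 weeks of water that cycled each day between 27 and 31 °C. The comparison holds 6 of the 18 libraries of the series. Libraries L1, L4 and L7 came from fish labelled DS hybrid, a cross of channel catfish (Ictalurus punctatus) and blue catfish (Ictalurus furcatus) that carries the Delta Select strain label. Libraries L2, L6 and L9 came from fish labelled RRxRR, channel catfish of the Red River strain. The other 12 libraries hold the same types at 32 to 36 °C and Delta Select channel catfish (DSxDS) at both temperatures. Every library was a pool of RNA from 3 fingerlings of a tank, so the spread between libraries is a spread between tanks and not between single fish. In these 6 libraries the hybrid cross and the Delta Select strain label go together, and their parts in a difference cannot be told apart. The labels do not say which species was the mother.

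The hybrid of channel and blue catfish is a farmed fish of the southern United States. A first-generation hybrid carries a single chromosome set from each parent species. A channel catfish carries its chromosomes as a pair from its own species, so a sequence found only in channel catfish is present in the hybrid in a single copy. Liver makes most blood plasma proteins and carries much of the metabolism of sugars, lipids and nitrogen. In bulk liver, fewer cells of a type and less RNA per cell cannot be told apart.

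The measured features are 144746 assembled transcripts, each named by a k-mer size between 50 and 94 and a number. A k-mer size is the word length that an assembler uses to join reads. The files pair no identifier with a gene, and 0 identifiers are in the RefSeq gene list, so functions and the markers of liver cell types were not examined, and only 4 transcripts are named. Reads on transcripts ran from 36242058 in L2 to 46072444 in L4. Pairs of libraries of the same group differed by 9.58 to 18.9 per degree of freedom in a chi-square test of their counts, far above the value of 1 that sampling noise alone gives. Library L6 stood apart in its scaling factor, at 1.16 against 0.928 to 1.001 in the other 5. Libraries L3 and L5, labelled DSxDS, carried many transcripts that the other libraries of that label lacked. They were kept out of the test, and their values are given apart.

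The hybrid and Red River livers differed in a large part of the transcripts measured. Of 90624 transcripts tested, 17294 were higher in hybrid than in Red River fish (19.1%) and 12771 were lower (14.1%), in all 33.2% (edgeR quasi-likelihood test, adjusted p under 0.05, 3 libraries against 3). The median log2 ratio of hybrid to Red River was 1.36 among the rises and -0.94 among the falls, against -0.01 over all transcripts tested. Rises outnumbered falls under each scaling run but 1. With library totals alone 13637 rose and 18069 fell, so that rises were 43.0% of the calls in place of 57.5%, and the median log2 ratio of all transcripts then lay at -0.17. The hybrid libraries lay wholly above the Red River libraries in 22093 transcripts, 24.4% of those tested, and wholly below them in 19200, or 21.2%.

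The distribution of the ratio had 1 main peak, close to equality. Over all transcripts tested its highest point lay at -0.05 on the log2 scale. In the 9 pairings of a hybrid with a Red River library, over the 50844 transcripts of at least 1 CPM (counts relative to the scaled library total), it lay between -0.10 and 0.05. The middle 50% of single-library ratios spanned 0.85 to 1.002 log2 units in those pairings. The same span was 0.44 to 0.53 between hybrid libraries and 0.44 to 0.46 between Red River libraries.

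No separate peak stood at 0.5 times the Red River level. The density had 0 local maxima within 0.25 of -1 on the log2 scale, which is a ratio of 0.42 to 0.59. In steps of 0.1 the histogram climbed at each of 19 steps between -2 and 0. There were also 0 such maxima in the 3 classes of transcripts under 100 CPM and in each of the 9 single-library pairings. In the 1562 transcripts over 100 CPM 2 small maxima stood in this window, at -1.08 and -0.91. The one at -0.91 was the higher, at 13.7% of the height of the main peak, and both were gone at a bandwidth of 0.1. Among the 12 k-mer sizes, maxima in this window appeared in k74, at -1.17, and in k90, at -0.807. They reached 19% and 43.3% of the height of the main peak of their size, and were gone at the same bandwidth. Within 0.25 of 1 on the log2 scale, maxima stood over 100 CPM and at every k-mer size but k58 and k86. That window was not searched at a bandwidth of 0.1.

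The region near 0.5 held more transcripts than the region near 2 with the scaling used. The window within 0.25 of -1 held 8682 transcripts, 9.58% of those tested, against 6757 or 7.46% in the mirror window around 1, a ratio near 2. Of these, 5438 were called lower and 4378 called higher. The excess over the mirror window depended on where 0 was set. It was 1.28 times with the scaling used, 2.16 times with library totals alone and 1.06 times with 0 at the main peak. It also depended on the level. Transcripts under 1 CPM had 11.5% near 0.5 and 8.40% near 2, and those from 1 to 10 CPM had 8.50% and 6.63%. From 10 to 100 CPM the shares were 6.89% and 6.99%, and over 100 CPM they were 4.54% and 7.17%. The centre of the ratios moved with the level too. Median log2 ratios were -0.01 under 1 CPM, -0.03 from 1 to 10, 0.04 from 10 to 100 and 0.17 over 100 CPM. The highest point of the density lay at -0.225 under 1 CPM and at 0.217 over 100 CPM. Each of these classes had a further maximum nearly as high and closer to equality. Under 1 CPM it lay at 0.00586, with a density of 0.462 against 0.473. Over 100 CPM it lay at 0.0528, with a density of 0.793 against 0.869. The shares of a class thus depend on its centre as well. Transcript lengths are not in the files, so these classes mix length with abundance.

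**Figure D1:**
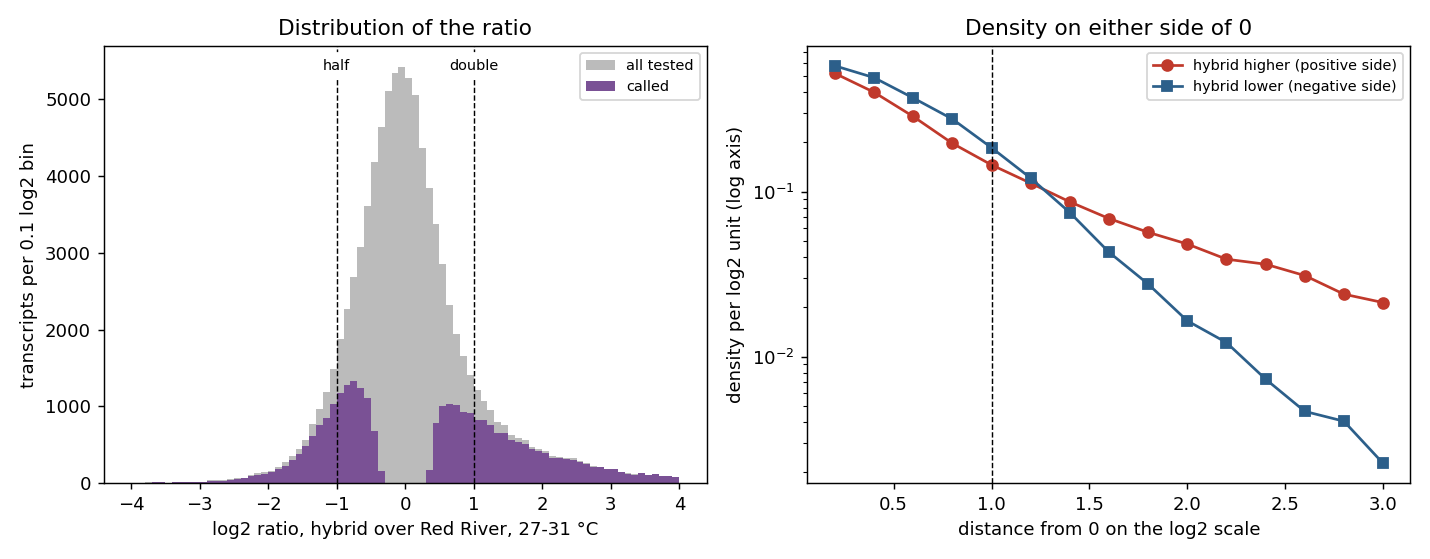
Left, number of transcripts per 0.1 log2 bin (bins from -4 to 4 drawn) of the hybrid to Red River ratio at 27 to 31 °C, for all 90624 tested and for those called; right, density at equal distances on either side of 0 (log axis). The histogram has 1 main peak near 0, the gap in the called transcripts around 0 comes from the test's threshold, and the curve for lower in hybrid runs above the other up to a distance of 1.2 and below it from 1.4 on.

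The negative side was steep beyond a ratio of 0.5 and the positive side was long. At a distance of 0.8 from 0 the density on the side of lower in hybrid was 1.40 times that on the side of higher in hybrid. At 1 it was 1.27 times, at 1.4 it was 0.862 times, at 2 it was 0.343 times and at 3 it was 0.106 times. Of the called falls, 54.7% were under 2-fold and 39.0% between 2 and 4-fold. Only 6.32% of the falls were over 4-fold, against 30.3% of the rises.

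Ratios near 0.5 and near 2 were also seen between single libraries of the 2 types, both more often than between tanks of a type. Ratios between the types were spread wider, so windows away from 0 hold more of them. The higher shares therefore say nothing particular to 0.5 or 2. In the 9 hybrid to Red River pairings, 8.53% to 9.31% of transcripts of at least 1 CPM lay near 0.5 and 6.77% to 9.26% near 2. Between 2 hybrid libraries 2.08% to 4.01% lay near 0.5, and between 2 Red River libraries 2.35% to 2.54%. Near 2 these shares were 3.31% to 4.27% between hybrid libraries and 2.41% to 2.88% between Red River libraries. Over all 90624 transcripts tested, those with all 9 pairings near 0.5 numbered 112 (0.124%), and those with all 9 near 2 118 (0.130%). Both were counted under a single scaling, and their difference was not tested. The median levels of these 2 sets were 5.08 and 5.23 CPM.

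**Figure D2:**
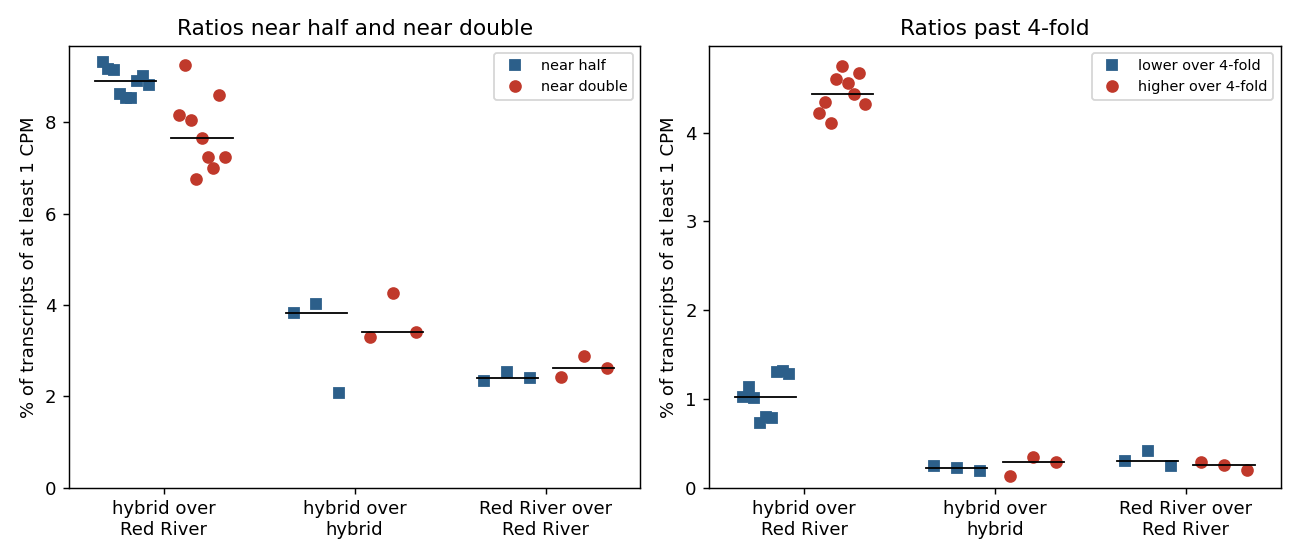
Share of the 50844 transcripts of at least 1 CPM whose ratio between 2 single libraries lay near 0.5 or near 2 (left), or past 4-fold (right); each point is a pair of libraries and the bar is the median. Between types near-0.5 shares lie at 8.53% to 9.31%, and past 4-fold the shares higher in hybrid, 4.11% to 4.75%, stand well above those lower, 0.734% to 1.31%.

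The most abundant called transcript with all 9 pairings near 0.5 was k50:2887752. It had 107.0 CPM in L1, 108.4 in L4 and 113.1 in L7, against 200.9 in L2, 244.1 in L6 and 206.9 in L9. The rule of the choice puts all hybrid libraries below all Red River libraries, each pairing near 0.5 and the adjusted p under 0.05. The separation, the ratio at the low temperature and its call are therefore not results. Its log2 ratio was -0.99 ± 0.16 (SE, edgeR, adjusted p = 0.000149), and single pairings ran from 0.439 to 0.563 times. At 32 to 36 °C it had 99.8, 123 and 134.3 CPM in hybrids, against 166.9, 212.9 and 145.6 CPM in Red River fish. The log2 ratio there was -0.56 ± 0.16 (edgeR, adjusted p = 0.0111), and the difference between the temperatures was not called (interaction contrast, adjusted p = 0.711). Delta Select channel fish had 111.4 to 152 CPM at the high temperature, which overlapped both types, and 129.3 CPM in L8.

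Large differences went mostly toward the hybrid. Over 2-fold, 11424 transcripts rose and 5784 fell, 1.98 rises to a fall. Over 4-fold there were 5236 rises and 807 falls, 6.49 to 1. Over 16-fold there were 1242 and 89, and over 64-fold 427 and 32. Many of the largest ratios rest on a group with no reads: 269 of the rises had 0 reads in all 3 Red River libraries and 18 of the falls had 0 in all 3 hybrid libraries. With such a group set to a floor of 3 reads over its 3 libraries, and ratios of summed reads, the counts were 5296 and 829 over 4-fold, 1210 and 89 over 16-fold, and 249 and 17 over 64-fold. The imbalance kept its direction with library totals alone, at 4638 rises and 1099 falls over 4-fold.

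**Figure D3:**
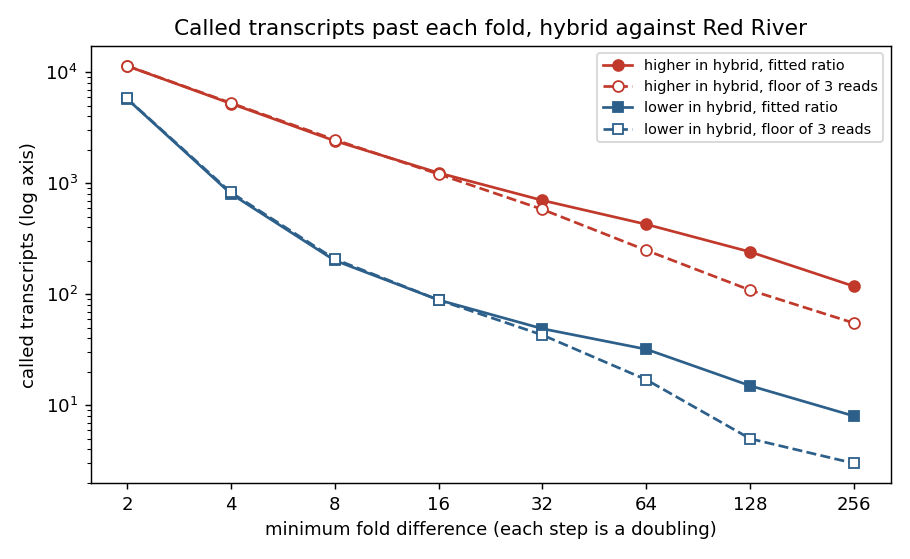
Number of called transcripts past each fold difference, higher (circles) and lower (squares) in hybrid than in Red River fish at 27 to 31 °C, on a log axis; filled symbols are fitted ratios, open symbols set a group without reads to 3 reads. The lines are already apart at 2-fold, with 11424 rises and 5784 falls, and lie farther apart at 4-fold, with 5236 and 807.

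The imbalance of large changes held at each level of abundance. Over 4-fold, 7.99% of the transcripts under 1 CPM rose and 1.39% fell. From 1 to 10 CPM it was 3.99% and 0.558%. From 10 to 100 CPM it was 4.24% and 0.322%, and over 100 CPM 4.42% and 0.128%. In single pairings 4.11% to 4.75% of transcripts of at least 1 CPM were over 4-fold higher and 0.734% to 1.31% over 4-fold lower. Between libraries of the same type, in either direction, these shares lay between 0.136% and 0.407%.

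The largest called rise was k94:98188 when only transcripts at a mean log2 CPM of 3 or more, and with groups that did not overlap, were ranked. Outside those limits some called rises had larger fitted ratios. Transcript k94:98188 had 62.2 CPM in L1, 79.9 in L4 and 104 in L7, against 0.0282 in L2, 0.0220 in L6 and 0.0249 in L9, a single read in each. Reads numbered 9082 and 3. Relative to the scaled library totals the ratio was 3288, with a 95% exact interval of 1125 to 15950 that covers counting error only. At the high temperature it was again near absent in Red River fish, at 0.0621 CPM or less, and at 43.4 to 55.8 CPM in hybrids. Delta Select channel fish had at most 0.0195 CPM at the high temperature and 0.0739 CPM in L8, while L3 had 42.3 and L5 21.2 CPM.

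Within the same limits, the most abundant rise over 2-fold was k74:1394482. It had 4567 CPM in L1, 4263 in L4 and 4494 in L7, against 2177 in L2, 1705 in L6 and 2205 in L9. Its log2 ratio was 1.13 ± 0.12 (SE, edgeR, adjusted p = 2.98e-06). At the high temperature the ratio was 0.97 ± 0.12 (edgeR, adjusted p = 1.45e-05), and Delta Select channel fish had 1682 to 1799 CPM there.

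Within the same limits of abundance and overlap, the largest fall was k50:1937876. Outside those limits there were called falls with fitted log2 ratios below this one. Transcript k50:1937876 had 0.475 CPM in L1, 0.283 in L4 and 0.299 in L7, against 33.6 in L2, 28.9 in L6 and 68.8 in L9. By the rule of the choice the groups do not overlap, and L9 lay at over 2 times the level of L2 and L6. Its log2 ratio was -6.95 ± 0.47 (SE, edgeR, adjusted p = 1.13e-06), and -4.21 ± 0.44 at the high temperature, where Red River fish had 4.41 to 7.98 CPM (adjusted p = 3.32e-05). The difference between the temperatures was not called (edgeR interaction contrast, adjusted p = 0.392). Delta Select channel fish had 3.14 to 11.5 CPM at the high temperature and 15.6 CPM in L8.

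**Figure D4:**
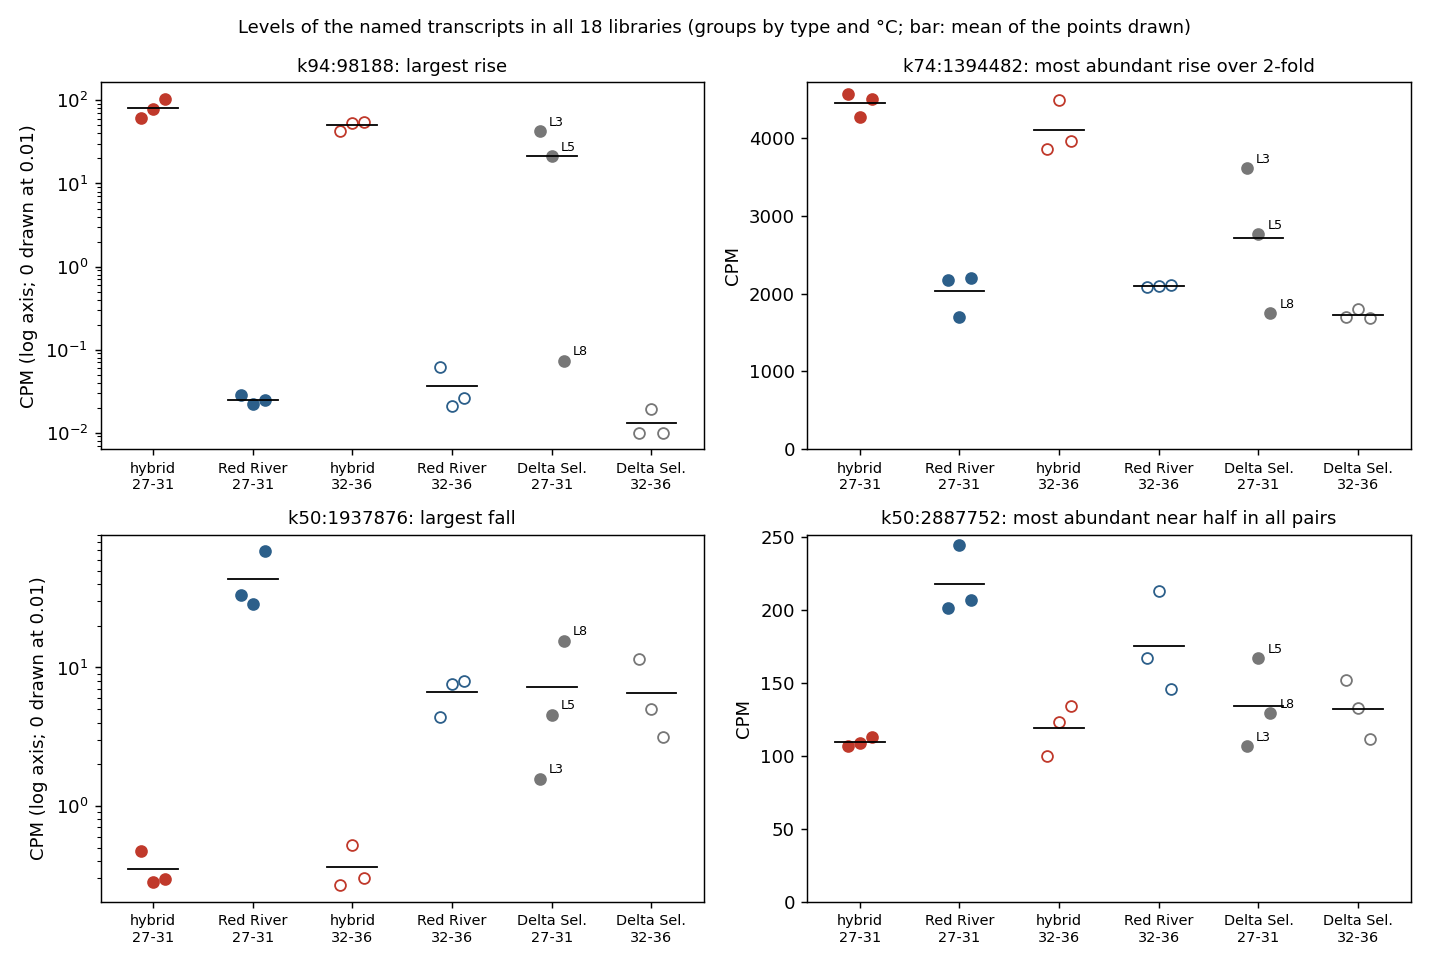
CPM of the 4 named transcripts in all 18 libraries, grouped by type and temperature (filled, 27 to 31 °C; open, 32 to 36 °C), with the mean of the points as drawn as a bar; largest and most abundant in the panel titles hold within the limits of abundance and overlap given in the text, and the panels on the left have a log axis. In each panel the 3 hybrid libraries at 27 to 31 °C lie apart from the 3 Red River libraries, which the choice required. For both rises and the largest fall L3 and L5 lie nearer to the hybrids than L8 does. For k50:2887752 L3 lies at 106.7 CPM, L5 at 166.7 and L8 at 129.3, so L5 lies farther from the hybrids than L8.

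Transcripts seen in a single type were far more often hybrid ones. With each library thinned to 36242058 reads, 312 of the 144746 transcripts had at least 5 reads in every hybrid library and 0 in all 3 Red River libraries. The reverse pattern held for 17. The hybrid transcripts had a median of 14.2 reads per library and reached 431, and those of Red River fish 23 and 167. In the separate libraries of the high temperature 154 of the 312 met the same rule, and 192 were again at 0 in all 3 Red River libraries. Of the 17, 5.88% met their rule again. Delta Select channel libraries had a read for 69 to 81 of the 312 in H3, H5, H9 and L8. Library L5 had a read for 292 and L3 for 309.

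The number of transcripts detected differed less. With at least 1 read at equal depth, L1, L4 and L7 had 119662, 120669 and 120633, against 116941 in L2, 119376 in L6 and 116929 in L9. The means were 120321 ± 571 in hybrids and 117749 ± 1409 in Red River fish (SD, n = 3 each). The groups did not overlap, though L6 came close to L1, and the exact permutation test gave p = 0.1, two-sided, the smallest that 3 against 3 allows. With at least 5 reads the groups overlapped, at 94192 ± 467 and 93011 ± 2361, and L6 had the highest number of all at 95737 (exact permutation test, p = 0.4, n = 3 each).

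Rises over 2-fold gained a larger share of the counted reads than falls over 2-fold gave up. Rises over 2-fold held 14.7% ± 1.65 of the counted reads in hybrid libraries and 4.63% ± 0.0815 in Red River libraries (SD, n = 3 each). Falls over 2-fold held 1.71% ± 0.179 in hybrids and 4.85% ± 0.265 in Red River fish. Library L4 was the highest, at 16.6% of reads on these rises against 13.4% in L1 and 14.1% in L7. For transcripts near 0.5 the shares were 3.58% ± 0.00732 and 7.76% ± 0.307. These transcripts were chosen on the same ratios, so the shares describe their weight and test nothing.

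The ratios were seen again in 6 libraries of the high temperature, 3 hybrid and 3 Red River, which shared no tank pool with the 6 above. Of the 17294 rises, 97.7% had a ratio above 0 there and 77.7% were also called higher, and 21 were called lower. Of the 12771 falls, 96.6% had a ratio below 0, 64.3% were called lower and 16 were called higher. Over all transcripts tested, 19.8% were called higher and 15.3% lower at the high temperature. Calls at both temperatures came from the same fit, with a shared filter and a shared estimate of each transcript's spread. The calls at the high temperature are therefore not independent of those at the low temperature. The median log2 ratio of the rises was 1.36 at the low and 1.22 at the high temperature, and that of the falls -0.94 and -0.76. The transcripts were chosen on their values at the low temperature, and the sizes at the 2 temperatures were compared only by the interaction contrast.

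The shape of the distribution was also alike. At the high temperature its highest point lay at -0.12, and 0 local maxima stood near 0.5. There were 8682 transcripts near 0.5 at the low and 8555 at the high temperature, and 3308 lay there at both, which is 38.1% of the first and 38.7% of the second. Over 4-fold, 5449 rose and 578 fell at the high temperature. Of the 5236 rises over 4-fold at the low temperature, 78.0% were over 4-fold at the high temperature too. Of the 807 falls over 4-fold, 35.1% were. The falls lay nearer to the cut, with a median log2 ratio of -2.414 at the low temperature against 2.885 for the rises. At the high temperature 4953 of these rises were called higher and 541 of these falls were called lower. A ratio above 0 there was seen in 99.81% of these rises and in 3.47% of these falls. Over all transcripts tested, called or not, 6.22% were over 4-fold higher at the high temperature and 0.724% over 4-fold lower. Near 0.5 that share was 9.44%.

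**Figure D5:**
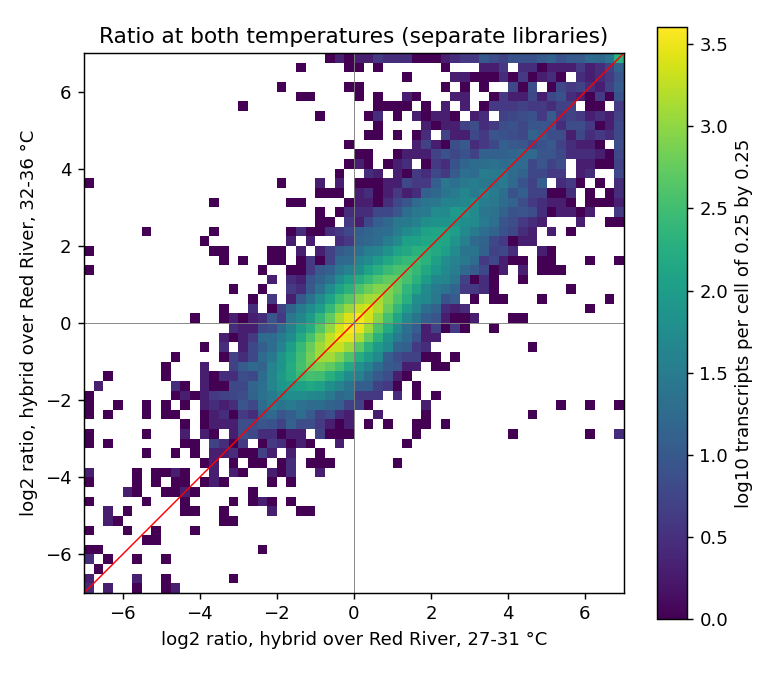
Log2 ratio of hybrid to Red River at 27 to 31 °C (horizontal) and at 32 to 36 °C (vertical) for 90624 transcripts, with values beyond the axes drawn at the edge; color gives the log10 number of transcripts per cell, and the diagonal marks equal ratios. The cloud follows the diagonal and reaches farther toward higher in hybrid at both temperatures.

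A difference between the temperatures in the hybrid to Red River ratio was called for 11 transcripts, 0.0121% of those tested (edgeR interaction contrast). Among the 11, the adjusted p of this contrast ran from 0.00022 to 0.0473. Most of them stood at 0.0473, close to the threshold of 0.05. Over all transcripts tested, the unadjusted p was under 0.05 for 6667, or 7.36%. Of the 11, 6 were falls over 4-fold at the low temperature. Their log2 ratios ran from -6.82 to -3.15 there and from -2.35 to -0.75 at the high temperature. Some of these falls, from different k-mer sizes, had much the same levels in all 12 libraries of the fit. Without sequences it cannot be told whether they come from separate genes.

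By their medians, Delta Select channel catfish at the high temperature lay nearer to Red River fish than hybrids did in each set below. For the rises over 4-fold the median log2 ratio to Red River fish was 0.18 in H3, 0.12 in H5 and 0.15 in H9, against a fitted median of 2.82 for hybrids at that temperature. For transcripts called near 0.5 it lay between -0.03 and 0.01 in the same 3 libraries, against -0.79 for hybrids. For falls over 4-fold it lay between -0.45 and -0.40, against -1.69. The lower quartile of these falls was -1.13 in H3, -1.24 in H5 and -1.19 in H9. The upper quartile of the rises was 0.761, 0.717 and 0.748. At the low temperature, ratios were taken against the Red River libraries that the choice itself used. There the median of L8 lay at 0.25 for the rises, -0.15 for those called near 0.5 and -0.84 for the falls. Library L3 lay at 2.56, -0.70 and -1.58 for these sets, and L5 at 1.73, -0.37 and -1.18, between L8 and the hybrids in each set.

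The identifiers also carried a pattern. The share near 0.5 was 11.3% to 11.5% in k50, k54 and k62 and 9.77% to 10.3% in k58, k66 and k70. In the 6 larger sizes it was 6.80% to 9.21%, lowest in k86. The share near 2 lay between 6.74% in k50 and 8.06% in k86, with no steady order by size between them. Falls over 4-fold were 1.36% of k50 and 0.407% of k94 transcripts, while rises over 4-fold stayed between 5.07% and 6.37% at every size. Median levels lay between 0.689 CPM in k50 and 3.41 CPM in k86. Median log2 ratios lay between -0.09 in k50 and 0.07 in k86, so the shares of a size also depend on its centre. Among transcripts of 1 to 10 CPM alone, the share near 0.5 was 10.2% in k50 and 6.46% in k86, and that near 2 5.45% and 7.52%. The part of the assembly in these shares was not tested.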

How the data were processed

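The authors deposited raw read counts per assembled transcript, 1 column per library. Per the labels' protocols, a TruSeq kit and single-end reads of 50 bases were used. The submitters' processing notes name Bowtie2 2.1.0, DESeq 1.12.1 and R 3.1.0 without saying what each did. No source used here gives the assembler, the counting tool or whether strand was used. Transcripts of a gene, of paralogs and of both parental species can share reads, so single counts are uncertain. Whether transcripts of different k-mer sizes overlap in sequence was not examined, so numbers of transcripts are not numbers of genes. A row that names no transcript held 24.7% to 25.6% of the reads and was left out. The authors' rescaled table was not used.

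The test was edgeR 4.0.16 in R 4.3.3 (quasi-likelihood, robust, TMM scaling), with a mean for each of 4 groups over the 12 hybrid and Red River libraries of both temperatures. The filterByExpr filter (minimum count 10, minimum total 15) removed 54122 transcripts, and 90624 were tested. Benjamini-Hochberg adjustment ran over all tested transcripts, and an adjusted p under 0.05 is a call. Standard errors come from the F statistic. The ratio is the fitted log2 ratio. Its density is Gaussian with a bandwidth of 0.05, and a local maximum counts from 2% of the highest. Single-library ratios used a prior count of 0.5, and levels of single libraries are CPM with TMM scaling over 18 libraries. Classes of CPM and limits on it use the average level of the fit over its 12 libraries. Replicates are tank pools. P-values measure the spread between pools. The test and the search for maxima were checked on simulated counts. There a part of the transcripts was set to 0.5 times and nearly all others had equal means in the 4 groups. The simulated counts lacked the wider spread of ratios between the types. The check therefore does not show whether transcripts at 0.5 times would form a maximum in these data. Alternatives were other scalings, filters, tools (DESeq2 1.42.0, limma-voom 3.58.1), libraries, prior counts, windows and bandwidths.

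The comparison, windows and lists were chosen with earlier results of these data known. At most 2 rises and 2 falls were named, among called transcripts of mean log2 CPM of at least 3 whose groups did not overlap: the largest rise and fall, the most abundant rise over 2-fold, and the most abundant fall with all 9 pairings near 0.5.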

Additional observations from a re-analysis of the deposited data

Results flagged for a closer look

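The hybrid to Red River ratio differed between the low and the high temperature for 11 transcripts by the interaction contrast of edgeR. Most of them had an adjusted p of 0.0473 in that contrast, close to the threshold of 0.05. The contrast was not run under the alternatives below. At the high temperature 9 ratios were higher and 2 lower. Some of these transcripts had much the same levels across libraries and may not come from separate genes.

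Libraries L3 and L5, which are labelled Delta Select channel catfish and were kept out of the test of hybrid against Red River fish, held transcripts that were high in hybrids. Over the 5236 rises above 4-fold, the median log2 ratio to the Red River libraries was 2.56 in L3 and 1.73 in L5, against 0.25 in L8 of the same label.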

How the results depend on the processing

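No paired analysis was possible because the compared groups share no replicate number in the labels. The 4 named transcripts kept their direction and call under all 25 alternatives run for each, with adjusted p between 4.53e-66 and 0.00127. The prior count of 2 and the ratio of summed reads carry the adjusted p of the main fit. The call could not change under these. Rises over 4-fold outnumbered falls over 4-fold, and near 0.5 outnumbered near 2, under every alternative run, and the number of local maxima near 0.5 was 0 in each of 28. With a mean of at least 50 reads, which leaves 46120 transcripts, 18576 were called, 9511 of them higher. There were then 1763 rises and 238 falls over 4-fold, 3852 near 0.5 and 2929 near 2. A prior count of 2 gave 502 falls over 4-fold. A window of 0.15 on either side gave 5059 near 0.5 and 3972 near 2, and no filter gave 10639 near 2. The main peak lay at -0.217 with library totals alone, -0.00195 when centred on itself and 0.00977 without a filter. The number called without any 1 of the 12 libraries stayed within 1.5 times the full count. The fits with all 18 libraries and without L3 and L5 called 16466 and 17475 rises and 11525 and 13799 falls. Depth limits transcripts under 1 CPM, where a few reads set a ratio.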
